A study of Mus musculus with 6 samples.

Results

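The proteasome genes described here are the 49 genes whose symbol in the array annotation begins with Psma, Psmb, Psmc, Psmd, Psme or Psmg followed by a digit, of 19505 gene symbols on the array. Each was measured by 1 array feature. By role they comprise 7 alpha and 6 beta genes of the constitutive 20S core, 6 ATPase and 11 non-ATPase genes of the 19S regulator, and 5 immunoproteasome genes (Psmb8, Psmb9, Psmb10, Psme1 and Psme2). The remainder are 2 other activators, 7 assembly chaperones, 2 tissue-restricted core genes and 3 genes outside these roles: Psme2b, a near-identical copy of Psme2, and Psmc3ip and Psme3ip1, named for the subunits they bind. Psmb5, the chymotrypsin-like constitutive beta subunit, is not analysed here, so that 30 of 31 listed constitutive 26S genes were measured.

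RNA was taken from whole hearts of 6 male mice, 1 mouse per array, in 3 groups of 2. All mice were 8 weeks old when the left coronary artery was tied to cause a myocardial infarction (MI), and mice with an ejection fraction above 45% on echocardiography 2 days later were left out of the study. The groups 8W-Ctrl and 12W-Ctrl carried Tcf21iCre/Tomato, a Cre named for Tcf21, a gene of cardiac fibroblasts, with a fluorescent reporter. Their hearts were harvested 2 months (8W-Ctrl) or 3 months (12W-Ctrl) after MI. The group 12W-TTg carried Tcf21iCre/Tomato/MGTH2A, in which Mef2c, Tbx5, Gata4 and Hand2, transcription factors of heart development, are supplied by a transgene, and was harvested at 3 months. All 3 groups therefore share the Cre, the reporter and the infarct, and no uninjured heart was among them. The comparison of 12W-TTg with 12W-Ctrl asks what the transgene is associated with in the chronic infarct, and that of 12W-Ctrl with 8W-Ctrl asks about time after MI. In 12W-TTg against 8W-Ctrl, genotype and time differ together and cannot be told apart.

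The proteasome degrades proteins tagged with ubiquitin. Its 20S core is a barrel of outer alpha rings, which gate the entrance, and inner beta rings, of which Psmb5, Psmb6 and Psmb7 encode the cutting subunits. The 19S regulator caps the barrel: its base of ATPases (Psmc genes) unfolds the substrate and its non-ATPase subunits (Psmd genes) receive ubiquitin and remove it. Interferon gamma induces replacements for the cutting subunits, Psmb8 for Psmb5, Psmb9 for Psmb6 and Psmb10 for Psmb7, which together form the immunoproteasome that prepares peptides for MHC class I, and the 11S activator PA28, encoded by Psme1 and Psme2. Blood-derived leukocytes carry the immunoproteasome constitutively. In cardiac muscle, the ubiquitin-proteasome system turns over sarcomere proteins and is a known participant in remodelling.

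Promoter sequences are shown for the genes on which the results turn, the 3 inducible cutting subunits and the alpha subunits Psma5 and Psma7. Each is the 250 bases that precede the annotated start, written 5′ to 3′ along the gene, from RefSeq on build GRCm38.p6. Capitals mark matches, on either strand, to 4 short motifs: the interferon gamma activated site GAS (TTCNNNGAA), a pair of interferon regulatory factor half-sites (GAAANNGAA), the antioxidant response element read by Nfe2l1 and Nfe2l2 (TGACNNNGC) and the CCAAT box.
Psmb8 (chr17:34197945-34198194, plus strand): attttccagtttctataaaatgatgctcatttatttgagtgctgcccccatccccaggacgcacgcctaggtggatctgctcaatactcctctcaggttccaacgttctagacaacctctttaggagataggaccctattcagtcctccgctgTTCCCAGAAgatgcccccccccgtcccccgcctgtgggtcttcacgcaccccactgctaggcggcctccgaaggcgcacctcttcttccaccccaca
Psmb9 (chr17:34187331-34187580, minus strand): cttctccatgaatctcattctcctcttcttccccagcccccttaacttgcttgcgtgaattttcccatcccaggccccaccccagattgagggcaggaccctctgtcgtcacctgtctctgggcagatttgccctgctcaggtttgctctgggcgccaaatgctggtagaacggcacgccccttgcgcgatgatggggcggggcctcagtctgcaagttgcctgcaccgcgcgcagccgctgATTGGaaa
Psmb10 (chr8:105938393-105938642, minus strand): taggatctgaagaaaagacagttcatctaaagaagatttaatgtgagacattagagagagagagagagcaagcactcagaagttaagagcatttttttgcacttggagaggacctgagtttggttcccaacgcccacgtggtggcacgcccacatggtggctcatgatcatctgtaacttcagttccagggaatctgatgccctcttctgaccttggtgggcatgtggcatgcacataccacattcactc
Psma5 (chr3:108256676-108256925, plus strand): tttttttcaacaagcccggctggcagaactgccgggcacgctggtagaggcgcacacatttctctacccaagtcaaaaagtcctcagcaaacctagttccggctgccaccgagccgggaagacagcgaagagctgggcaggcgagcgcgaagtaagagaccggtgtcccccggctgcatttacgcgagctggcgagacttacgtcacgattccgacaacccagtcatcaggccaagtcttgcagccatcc
Psma7 (chr2:180042465-180042714, minus strand): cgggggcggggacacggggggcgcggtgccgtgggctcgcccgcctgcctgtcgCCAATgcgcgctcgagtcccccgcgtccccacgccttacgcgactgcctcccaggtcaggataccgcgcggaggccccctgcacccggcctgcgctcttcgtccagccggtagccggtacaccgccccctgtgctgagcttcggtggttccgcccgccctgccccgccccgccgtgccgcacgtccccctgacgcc
The capitals in Psmb8 are a GAS match and those in Psmb9 and Psma7 a CCAAT match, with no overlap between motifs. The windows of Psmb10 and Psma5 held none of the 4. Windows were found for 41 of the 49 genes. A gene counted once if any of its windows matched, whereas the percentages that follow are shares of windows. A GAS match occurred in 2 of the 41 (Psmb8 and Psmg1) and in 7.02% of all 32851 mouse promoter windows of this length. Interferon regulatory factor half-sites occurred in 3 (Psmb3, Psmd4 and Psmd9) against 7.13% of all windows, the antioxidant element in 4 (Psmb6, Psmc6, Psmd9 and Psmd12) against 10.2%, and CCAAT in 16 against 33.8%. In the RefSeq gene order of chromosome 17, Psmb9, Tap1, Psmb8 and Tap2 follow each other with 0 protein-coding genes between them, Tap1 and Tap2 encoding the peptide transporter of MHC class I presentation. Psme1 and Psme2 lie on chromosome 14 with 1 protein-coding gene, Emc9, between them.

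The array values are the deposited log2 values, here between 1.77 and 19.93 over 22206 features. Replicates correlated across features at 0.984 (8W-Ctrl), 0.986 (12W-Ctrl) and 0.989 (12W-TTg). Of 9 cardiomyocyte genes, all had means of 15.47 or more, which checks the labelled tissue, and several lay at the top of the scale. The genes of the 26S proteasome were well measured, with means between 8.97 and 13.58, whereas 3 of the 49 genes (Psma8, Psmb11 and Psmg3) were dim, below the 30th percentile of all features at 3.65. Each difference below is the log2 mean of one group minus that of the other, ± its SE in limma (n = 2 arrays per group), with two-sided p-values adjusted over all features by the Benjamini-Hochberg method. RNA came from whole tissue, so that fewer cells of a type and less RNA per cell cannot be told apart for any gene below.

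No proteasome gene passed the threshold, an adjusted p under 0.05 in limma, in any of the 3 comparisons. The smallest adjusted p among the 49 was 0.661 for 12W-TTg against 12W-Ctrl (0.00450% of all features passed), 0.496 for 12W-Ctrl against 8W-Ctrl (0.00450%) and 0.340 for 12W-TTg against 8W-Ctrl (0%). At an unadjusted p under 0.05, 3 genes were lower in 12W-TTg than in 12W-Ctrl (4.11% of all features) and 0 higher (3.35%). In 12W-Ctrl, 8 were lower than in 8W-Ctrl (4.09% of all features) and 0 higher (3.91%). In 12W-TTg, 11 were lower than in 8W-Ctrl (5.41%) and 0 higher (4.30%). The last 2 comparisons share the 8W-Ctrl arrays and the first 2 share the 12W-Ctrl arrays, so their counts are not independent. Of the 8 calls in 12W-Ctrl against 8W-Ctrl, 5 were core genes, 2 were 19S genes and 0 were immunoproteasome genes. Of the 3 in 12W-TTg against 12W-Ctrl, 2 were immunoproteasome genes and 1 was a core gene. Of the 11 in 12W-TTg against 8W-Ctrl, 5 were core genes, 4 were 19S genes and 1 was an immunoproteasome gene.

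Both hearts at 2 months lay above all 4 hearts at 3 months for 11 of the 13 core genes, among them every alpha ring gene. The mean log2 value of the 7 alpha genes was 12.07 and 11.67 on the 8W-Ctrl arrays, 11.06 and 11.20 on the 12W-Ctrl arrays and 10.91 and 11.13 on the 12W-TTg arrays. Such an order of single features, both 2-month values above all 3-month values, was found in 8.59% of all features, and in 14.0% of the 3353 features whose mean lies in the range of the 26S genes. The 3-month minus 2-month difference among Ctrl hearts ran from −0.99 to −0.44 over the alpha genes, with a median of −0.69 against 0.01 over all features. Of the 7, 5 had an unadjusted p under 0.05 in limma. Lower at that p were 4.09% of all features and 8.65% of the features in the range of the 26S genes. For 12W-TTg against 8W-Ctrl these shares were 5.41% and 11.3%.

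Psma7, an alpha subunit of the outer ring, measured 10.91 and 10.27 in 8W-Ctrl, 9.46 and 9.75 in 12W-Ctrl, and 9.28 and 9.03 in 12W-TTg. Both 2-month hearts were above the 4 others, and both TTg hearts were the lowest of all. Its difference was −0.99 ± 0.29 for 12W-Ctrl against 8W-Ctrl (adjusted p = 0.523), −0.45 ± 0.29 for 12W-TTg against 12W-Ctrl and −1.44 ± 0.29 for 12W-TTg against 8W-Ctrl (2.70-fold lower, adjusted p = 0.340).

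Psma5, another subunit of that ring, had the values 10.17 and 9.54 in 8W-Ctrl, 9.26 and 9.10 in 12W-Ctrl, and 8.41 and 8.57 in 12W-TTg. The 3 groups did not overlap, and they stood in the order 8W-Ctrl, 12W-Ctrl, 12W-TTg. The differences were −0.68 ± 0.28 over time in Ctrl (adjusted p = 0.615), −0.69 ± 0.28 between genotypes at 3 months (adjusted p = 0.661) and −1.37 ± 0.28 for 12W-TTg against 8W-Ctrl (adjusted p = 0.340). Between genotypes Psma5 had the lowest difference of the 30 constitutive genes and was the 1 among them with an unadjusted p under 0.05. Lower at that p were 4.11% of all features and 6.38% of those in the range of the 26S genes.

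Psma1, by contrast, had values of 12.95 and 12.86 in 8W-Ctrl, 11.63 and 12.26 in 12W-Ctrl, and 12.20 and 12.33 in 12W-TTg. The 2-month pair stood above the rest, whereas the TTg and Ctrl values at 3 months overlapped. The difference over time in Ctrl was −0.96 ± 0.28 (adjusted p = 0.518), and that between genotypes, 0.32 ± 0.28, was the highest of the 30 constitutive genes. The other 4 alpha genes (Psma2, Psma3, Psma4 and Psma6) differed by −0.03 to 0.08 between genotypes and by −0.84 to −0.44 over time in Ctrl.

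In the beta ring, the mean of the 6 genes was 12.48 and 11.90 in 8W-Ctrl, 11.51 and 11.91 in 12W-Ctrl, and 11.42 and 11.72 in 12W-TTg. These array means overlapped between 8W-Ctrl and 12W-Ctrl, unlike those of the alpha ring. Both 2-month values exceeded all 3-month values for 4 of the 6, Psmb2, Psmb3, Psmb4 and Psmb7. The difference over time in Ctrl was −0.88 ± 0.43 for Psmb2, whose 2-month values were 13.40 and 12.12, −0.68 ± 0.29 for Psmb4, −0.52 ± 0.27 for Psmb3 and −0.16 ± 0.29 for Psmb1.

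Of the constitutive cutting subunits, Psmb7 but not Psmb6 had both 2-month values above all others. Psmb6, the caspase-like subunit that Psmb9 replaces, measured 12.78 and 11.84 in 8W-Ctrl, 12.08 and 12.28 in 12W-Ctrl, and 11.99 and 12.20 in 12W-TTg. One 2-month heart was the highest and the other the lowest, so the groups overlapped, and the difference over time was −0.13 ± 0.34. Psmb7, the trypsin-like subunit that Psmb10 replaces, measured 13.57 and 13.71 in 8W-Ctrl, 12.69 and 13.53 in 12W-Ctrl, and 12.95 and 13.20 in 12W-TTg. The 2-month pair was highest, with a difference over time of −0.53 ± 0.32. Between genotypes, Psmb6 differed by −0.09 ± 0.34 and Psmb7 by −0.04 ± 0.32, less than their SE.

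**Figure D1:**
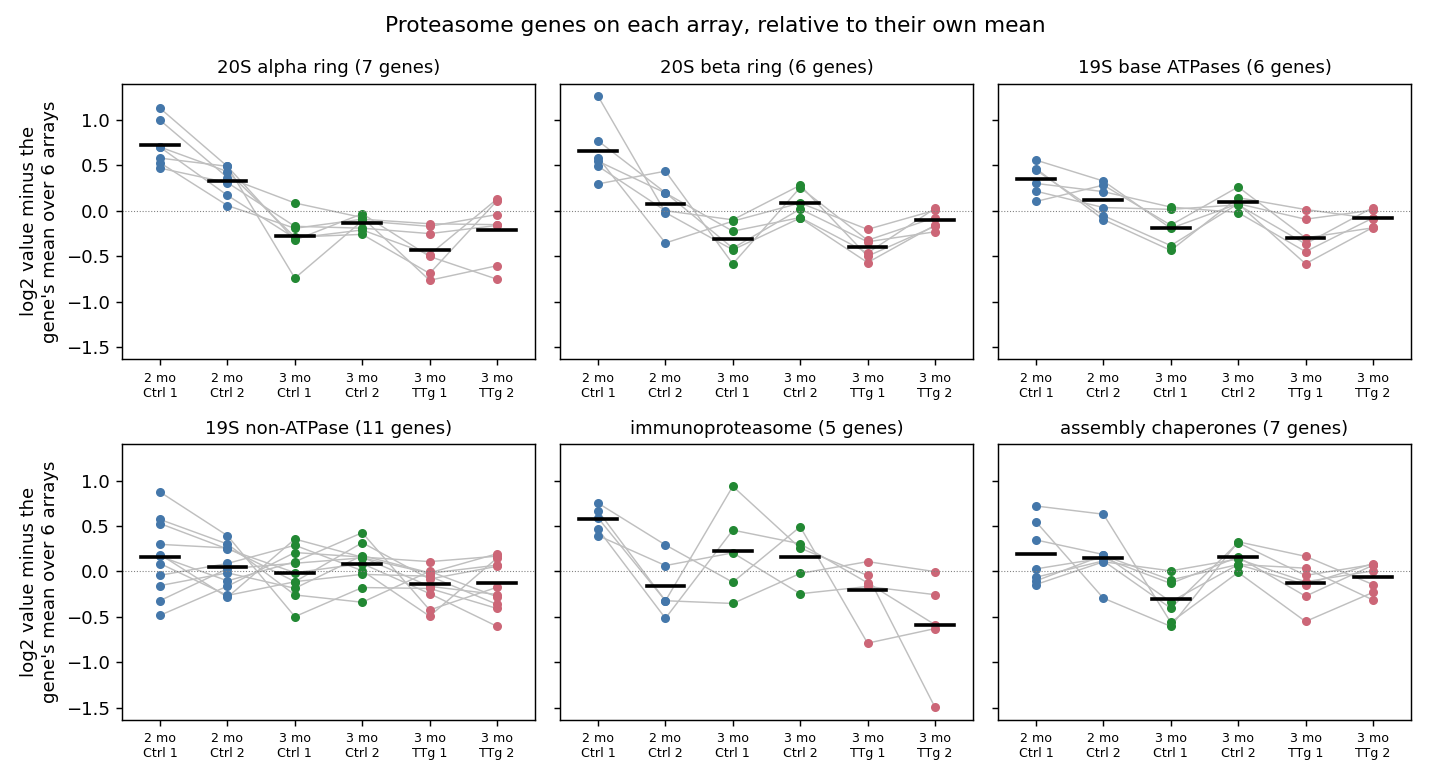
Log2 value of each gene minus that gene's mean over the 6 arrays (y axis) on each array (x axis), in 6 panels by role. Points are genes, grey lines join a gene's values and black bars are means over genes. The 7 alpha ring genes lie highest on both 2-month arrays, whereas the 11 non-ATPase genes of the 19S regulator scatter around 0. The mean of the 5 immunoproteasome genes is lowest on the 3-month TTg arrays. Before the gene means are subtracted it is 9.03 and 8.64 there, against 9.07 on 8W-Ctrl replicate 2.

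8W-Ctrl replicate 1 was the highest of the 6 arrays for 12 of the 13 core genes, 9 of the 17 genes of the 19S regulator and 4 of the 5 immunoproteasome genes. Within 8W-Ctrl, replicate 1 exceeded replicate 2 by a median of 0.49 for core genes and 0.91 for immunoproteasome genes, against −0.03 over all features. Without that array, the median core difference in Ctrl was −0.40 in place of −0.68. The remaining 2-month value was above all 3-month values for 11 of 13 core genes. A single 2-month value meets this condition more easily than a pair does, and its share over all features is not given. Without 8W-Ctrl replicate 2 the count was 13 and the median −0.96. These arrays were left out after the data had been seen.

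The 19S regulator had a smaller difference over time and no single direction. The mean of its 17 genes was 11.95 and 11.80 in 8W-Ctrl, 11.66 and 11.82 in 12W-Ctrl, and 11.53 and 11.62 in 12W-TTg. The median difference for 12W-Ctrl against 8W-Ctrl was −0.14, with 10 genes lower and 7 higher, and both 2-month values were above all 3-month values for 6 of the 17. Among the 6 base ATPases, which thread the substrate into the core, all 6 were lower at 3 months in Ctrl, with a median of −0.29 and Psmc6 lowest at −0.50 ± 0.26. Among the 11 non-ATPase genes 7 were higher and 4 lower, with a median of 0.13.

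Psmd8, a lid subunit, measured 12.20 and 11.72 in 8W-Ctrl, 10.83 and 11.15 in 12W-Ctrl, and 11.14 and 10.92 in 12W-TTg. All 4 hearts at 3 months lay below both hearts at 2 months, and the genotypes overlapped. The difference in Ctrl was −0.97 ± 0.27 (1.96-fold lower, adjusted p = 0.496), the smallest adjusted p of the 49 genes in that comparison. Psmd6, another lid subunit, had a difference of −0.74 ± 0.24 over the same interval.

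Psmd1, the large scaffold of the base, ran the other way. Its values were 11.23 and 11.55 in 8W-Ctrl, 11.92 and 11.87 in 12W-Ctrl, and 11.82 and 11.88 in 12W-TTg. Both 2-month hearts were below the other 4, with a difference of 0.51 ± 0.23 in Ctrl (adjusted p = 0.648) and 0.46 ± 0.23 for 12W-TTg against 8W-Ctrl (adjusted p = 0.578). The next highest differences over time in Ctrl were those of Psmd13 (0.31 ± 0.26) and Psmd11 (0.27 ± 0.24), both lid subunits.

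The core and the regulator were set against each other on every array. The mean of the core genes minus the mean of the 19S genes was 0.31 and −0.02 in 8W-Ctrl, −0.38 and −0.29 in 12W-Ctrl, and −0.39 and −0.21 in 12W-TTg. Both 2-month arrays were above all 3-month arrays, with group means of 0.14 ± 0.23 (SD, n = 2), −0.34 ± 0.06 and −0.30 ± 0.12. The difference between 12W-Ctrl and 8W-Ctrl was −0.48 and that between 12W-TTg and 12W-Ctrl 0.04. No p is given for a score over chosen genes, and an exact permutation test of 2 against 2 arrays cannot give a p under 0.333.

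Over all 30 constitutive 26S genes, 23 had a lower mean in 12W-Ctrl than in 8W-Ctrl (48.8% of all features), and 17 were lower without overlap (17.4%), 11 of them core genes. Higher without overlap were 2, Psmd1 and Psmd11, and 3 of all 49 genes (18.3% of all features). In 12W-TTg against 8W-Ctrl, 26 of the 30 were lower (47.3% of all features) and 20 without overlap (18.9%), with 1 higher without overlap (21.2%). In that comparison the lowest differences were those of Psma7, Psma5 and Psmb2, the last at −0.99 ± 0.43 (−0.35 without 8W-Ctrl replicate 1 and −1.63 without 8W-Ctrl replicate 2), and the highest were Psmd1, Psmd12 (0.18 ± 0.25) and Psmd11 (0.17 ± 0.24).

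Between genotypes at 3 months the constitutive proteasome differed little. Of the 30 genes, 23 had a lower mean in 12W-TTg than in 12W-Ctrl (48.3% of all features), with a median difference of −0.09 against 0.01 over all features. Without overlap, 9 were lower (19.3% of all features), 3 in the core and 6 in the regulator, and 0 were higher (19.1%). Next to Psma5, the lowest differences were those of Psmd2, the ubiquitin-receptor scaffold of the base (−0.57 ± 0.25, adjusted p = 0.678), and Psmd13 (−0.47 ± 0.26, adjusted p = 0.730). The highest after Psma1 were Psmd6 (0.16 ± 0.24) and Psmc5 (0.11 ± 0.31).

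**Figure D2:**
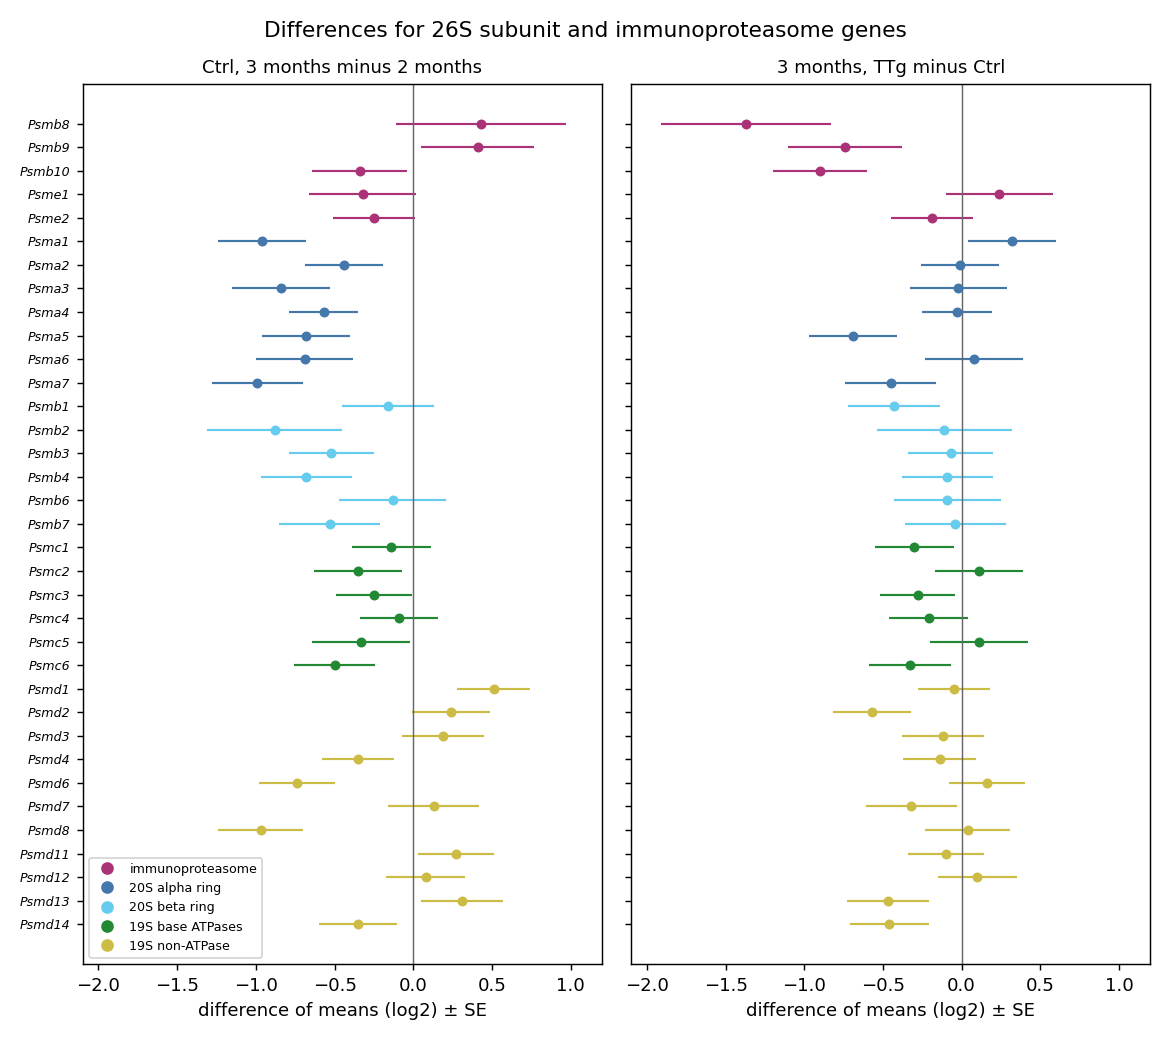
Difference of group means on the log2 scale (x axis), with bars of ± 1 SE from the limma fit, for the 5 immunoproteasome and 30 constitutive 26S genes (y axis), coloured by role. The left panel is 12W-Ctrl minus 8W-Ctrl and the right panel 12W-TTg minus 12W-Ctrl. On the left all 13 core genes lie below 0, from −0.99 to −0.13, and on the right most constitutive genes lie near 0 while Psmb8, Psmb9 and Psmb10 lie between −1.37 and −0.74.

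Within the immunoproteasome, the lower values between genotypes were those of the cutting subunits. Psmb8, Psmb9 and Psmb10 had lower values in both 12W-TTg hearts than in both 12W-Ctrl hearts, by 0.74 to 1.37 on the log2 scale, whereas Psme1 and Psme2 differed by less than their SE. The difference between these genes was not tested. None of the 5 passed over all features. Without overlap, 3 of the 5 were lower in 12W-TTg than in 12W-Ctrl and 1, Psme1, higher, against 19.3% and 19.1% of all features. The mean of the 3 cutting subunits was 7.35 and 6.54 in 8W-Ctrl, 7.15 and 7.07 in 12W-Ctrl, and 6.40 and 5.82 in 12W-TTg.

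Psmb8, the inducible chymotrypsin-like subunit, measured 7.63 and 6.64 in 8W-Ctrl, 7.90 and 7.22 in 12W-Ctrl, and 6.92 and 5.47 in 12W-TTg. TTg replicate 2 was the lowest array, and TTg replicate 1 lay within the 2-month range. The difference between genotypes was −1.37 ± 0.54 (2.58-fold lower, adjusted p = 0.661). It was −0.64 without 12W-TTg replicate 2 and −2.09 without 12W-TTg replicate 1, so that its size rests on these arrays. Over time in Ctrl it was 0.43 ± 0.54, within the spread.

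Psmb10, the inducible trypsin-like subunit, measured 8.63 and 8.17 in 8W-Ctrl, 7.76 and 8.37 in 12W-Ctrl, and 7.09 and 7.25 in 12W-TTg. Both TTg hearts were below all 4 Ctrl hearts. The difference was −0.90 ± 0.30 against 12W-Ctrl (1.86-fold lower, adjusted p = 0.661) and −1.23 ± 0.30 against 8W-Ctrl (2.35-fold lower, adjusted p = 0.340). Without 12W-Ctrl replicate 2 the first of these was −0.59.

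Psmb9, the inducible caspase-like subunit, was nearer to background, at 5.79 and 4.81 in 8W-Ctrl, 5.78 and 5.63 in 12W-Ctrl, and 5.20 and 4.74 in 12W-TTg. The TTg pair lay below the 12W-Ctrl pair and overlapped the 2-month pair, whose values were almost 1 log2 unit apart. The difference between genotypes was −0.74 ± 0.36 (adjusted p = 0.700) and that over time in Ctrl 0.41 ± 0.36.

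The subunits of the PA28 activator had another pattern. Psme1 measured 16.71 and 15.80 in 8W-Ctrl, 15.77 and 16.10 in 12W-Ctrl, and 16.23 and 16.12 in 12W-TTg. TTg values were higher than those of 12W-Ctrl without overlap, by 0.24 ± 0.34, but between the 2-month values. Psme2 measured 10.27 and 9.94 in 8W-Ctrl, 10.08 and 9.63 in 12W-Ctrl, and 9.71 and 9.62 in 12W-TTg, a difference of −0.19 ± 0.26 with overlap. The signals of Psme2 and of its near-identical copy Psme2b, which measured 9.13 and 8.05, 8.24 and 8.28, and 8.26 and 7.53 in the same order of arrays, may not be separable on the array.

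**Figure D3:**
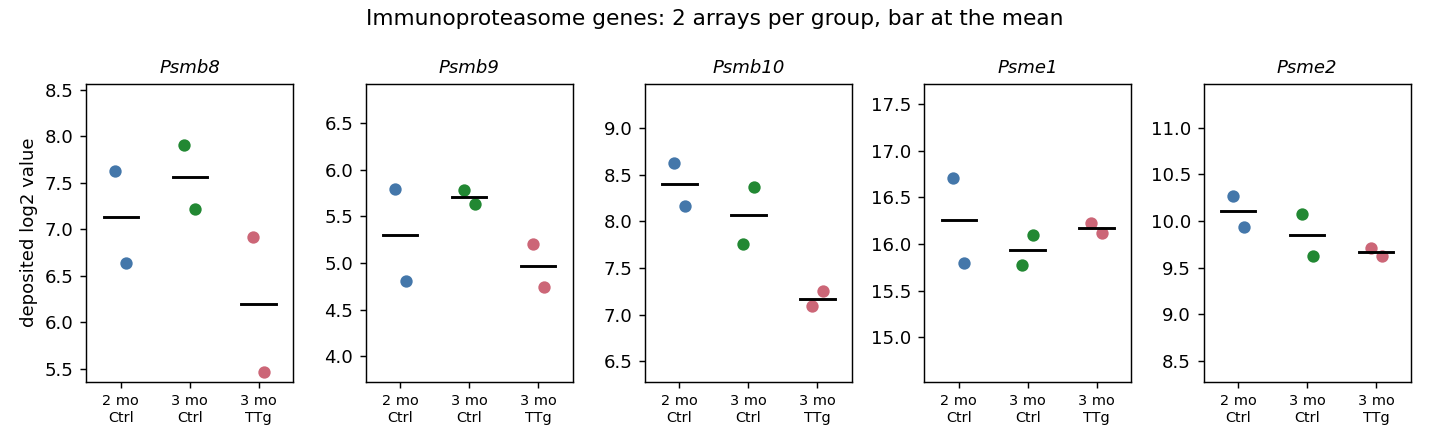
Deposited log2 values (y axis, each panel spanning the same number of log2 units) of the 5 immunoproteasome genes in the 3 groups (x axis). Points are the 2 arrays of a group and bars their mean. The TTg points of Psmb8, Psmb9 and Psmb10 lie below both 3-month Ctrl points, and the groups of Psme2 overlap.

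The immunoproteasome was then compared with the constitutive 26S genes on each array. The mean of the 5 genes minus the mean of the 30 was −2.28 and −2.72 in 8W-Ctrl, −2.03 and −2.30 in 12W-Ctrl, and −2.34 and −2.88 in 12W-TTg. Both 12W-TTg arrays were below both 12W-Ctrl arrays by a small margin, with a difference of −0.44 against an SD between replicates of 0.31. It was −0.17 without 12W-TTg replicate 2. The difference was 0.33 for 12W-Ctrl against 8W-Ctrl and −0.11 for 12W-TTg against 8W-Ctrl, both near or within that SD. With 1 array left out, these ran from 0.11 to 0.55 and from −0.39 to 0.16.

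With the cutting subunits alone, the difference from the 26S genes was −4.74 and −5.25 in 8W-Ctrl, −4.34 and −4.62 in 12W-Ctrl, and −4.96 and −5.70 in 12W-TTg. The TTg mean was lower than that of 12W-Ctrl by 0.85. With Psme1 and Psme2 alone it was higher by 0.17, from 1.30 ± 0.19 to 1.48 ± 0.18 (SD, n = 2). For the exchanged pairs, Psmb10 minus Psmb7 was −4.94 and −5.54 in 8W-Ctrl, −4.93 and −5.16 in 12W-Ctrl, and −5.86 and −5.95 in 12W-TTg. Both TTg values were below the 4 others. Psmb9 minus Psmb6 was −6.99 and −7.03, then −6.30 and −6.65, then −6.79 and −7.46 in the same order, where TTg lay below 12W-Ctrl and overlapped 8W-Ctrl. Only changes of such differences between groups can be read, since the signals of different features are not on a common scale.

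Markers of leukocytes were lower beside the inducible cutting subunits. The mean of 7 leukocyte genes was 7.93 and 6.86 in 8W-Ctrl, 8.47 and 7.18 in 12W-Ctrl, and 6.85 and 6.52 in 12W-TTg, and all 7 had a lower mean in 12W-TTg than in 12W-Ctrl (median −1.25). The mean of 9 macrophage genes was 10.10 and 9.21, then 10.51 and 8.94, then 8.45 and 7.75, with all 9 lower (median −1.52). Both lists were lowest on the TTg arrays, the leukocyte list by a very narrow margin (6.85 on TTg replicate 1 against 6.86 on 8W-Ctrl replicate 2). Their part in the lower Psmb8, Psmb9 and Psmb10 values was not tested.

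Other cell types were followed in the same way. Of 9 T and NK cell genes, 6 were dim, and the list ranged from 3.64 to 3.65 in 8W-Ctrl, 3.65 to 3.81 in 12W-Ctrl and 3.53 to 3.73 in 12W-TTg. B and plasma cell genes (5 measured) ranged from 3.76 to 4.10, 4.84 to 4.87 and 3.67 to 3.80. That list was carried by Jchain, the joining chain of antibodies, which differed by −4.06 between genotypes (limma, adjusted p = 0.0278) and 2.04 over time in Ctrl, while the other 4 genes had low signal and differed by −0.62 to −0.31 between genotypes. Fibroblast genes had means of 12.68 and 10.78, 12.67 and 11.55, and 11.15 and 9.72, with 7 of 7 lower in 12W-TTg than in 12W-Ctrl (median −1.70). Endothelial genes ranged from 11.48 to 11.84, 11.63 to 12.03 and 11.68 to 12.15, mural cell genes from 9.82 to 10.53, 10.63 to 10.74 and 10.54 to 10.98, and cardiomyocyte genes from 18.56 to 18.84, 18.64 to 18.97 and 18.97 to 19.02. Among the cardiomyocyte genes, Myl2 read 19.93 and Pln 19.89 on all 6 arrays, at or near the top of the scale, where a difference may not be seen. The part of all these cell types in the proteasome values was not tested.

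**Figure D4:**
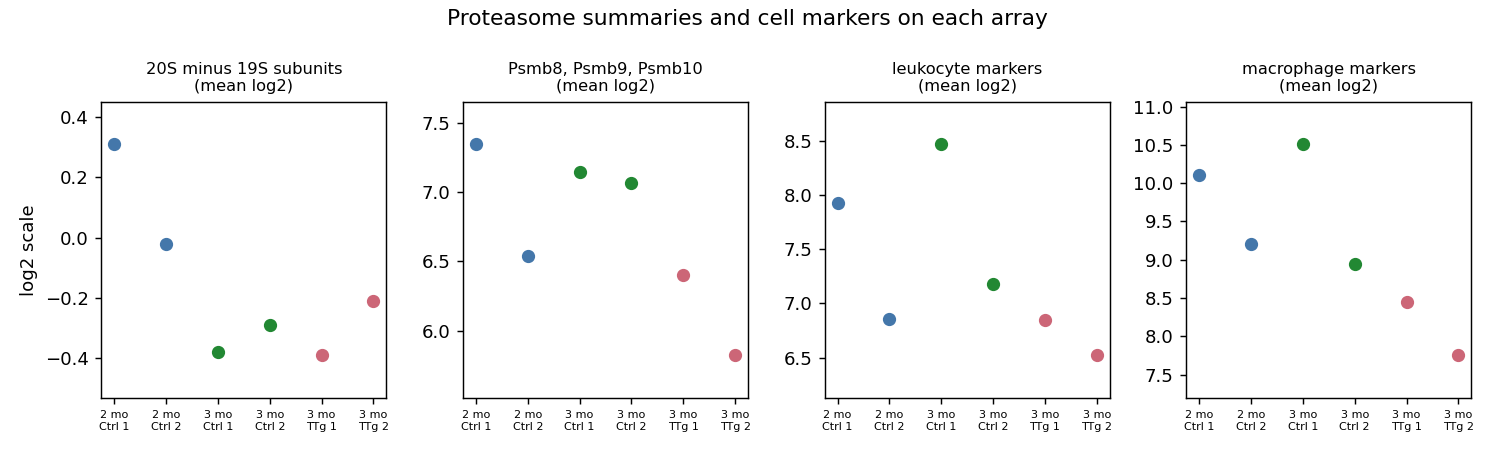
Values on each of the 6 arrays (x axis) on the log2 scale (y axis, a different range in each panel), for the core minus regulator mean, the mean of Psmb8, Psmb9 and Psmb10, and the means of 7 leukocyte and 9 macrophage genes. The core minus regulator value is highest on the 2-month arrays (0.31 and −0.02), and the other 3 panels have their lowest values on the TTg arrays. In the leukocyte panel, TTg replicate 1 (6.85) lies close to 8W-Ctrl replicate 2 (6.86).

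The remaining activators had small differences. Psme3, the nuclear PA28 gamma, had values of 11.83 and 12.10 in 8W-Ctrl, 11.70 and 12.01 in 12W-Ctrl, and 12.23 and 12.06 in 12W-TTg, higher in TTg than in 12W-Ctrl without overlap by 0.29 ± 0.25 (adjusted p = 0.833). Psme4, the activator PA200, ranged from 14.62 to 15.40 over the 6 hearts with overlapping groups, and its differences were 0.10 ± 0.31 over time in Ctrl and 0.11 ± 0.31 between genotypes.

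Among the 7 assembly chaperones, Psmg4 stood apart. It is one of the chaperones with which the alpha ring is built, and it measured 5.33 and 5.24 in 8W-Ctrl, 4.05 and 4.60 in 12W-Ctrl, and 4.06 and 4.38 in 12W-TTg. Both 2-month hearts were above the others. The difference was −0.96 ± 0.28 over time in Ctrl (adjusted p = 0.512), −1.07 ± 0.28 for 12W-TTg against 8W-Ctrl (adjusted p = 0.347) and −0.11 ± 0.28 between genotypes, for a gene of low signal. Psmg1 and Psmg2, also chaperones of the alpha ring, differed by −0.07 ± 0.29 and −0.05 ± 0.24 over time, and Psmg3 was dim (2.81 to 3.09). The chaperones of the 19S base, Psmd5, Psmd9 and Psmd10, differed by −0.27 ± 0.40, −0.08 ± 0.25 and −0.40 ± 0.26 over time. Between genotypes the 7 chaperones ranged from −0.13 to 0.15. Without overlap, 0 were lower and 0 higher, against 19.3% and 19.1% of all features.

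The tissue-restricted core genes were near background, Psma8 of the testis at 3.32 to 3.90 and Psmb11 of the thymus at 2.89 to 3.35. Of the genes outside these roles, Psmc3ip, a factor of meiotic recombination, was higher in 12W-TTg (5.63 and 5.31) than in 12W-Ctrl (5.12 and 4.96), by 0.43 ± 0.28, and lower in 12W-Ctrl than in 8W-Ctrl by 0.45. Psme3ip1, which binds Psme3, ranged from 10.20 to 10.52, and its differences were 0.13 ± 0.23 between genotypes and 0.03 ± 0.23 over time.

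Genes around the proteasome came from lists of cofactors, and 0 of their measured members passed over all features in any comparison. For other parts and assembly, 8 of 10 genes were measured. Sem1, the smallest subunit of the lid, measured 13.62 and 13.16 in 8W-Ctrl, 12.92 and 12.57 in 12W-Ctrl, and 12.58 and 12.62 in 12W-TTg. Both 2-month hearts were above all 3-month hearts, with a difference of −0.79 ± 0.27 for 12W-TTg against 8W-Ctrl (adjusted p = 0.427). Ecpas, an adaptor that binds the 26S proteasome, was higher by 0.63 ± 0.31 in that comparison, and Uchl5, a deubiquitinase of the 19S regulator, was higher by 0.55 ± 0.30 in 12W-TTg than in 12W-Ctrl. Pomp, which matures the 20S core, ranged from 11.53 to 11.98 over the 6 hearts and differed by −0.02 ± 0.24 over time and −0.21 ± 0.24 between genotypes.

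Of the transcription factors, 6 of 7 genes were measured. Nfe2l1, the factor that raises proteasome genes when the proteasome is impaired, measured 15.76 and 16.54 in 8W-Ctrl, 17.01 and 16.50 in 12W-Ctrl, and 16.51 and 16.43 in 12W-TTg. The groups overlapped, with a difference of 0.61 ± 0.33 over time in Ctrl (adjusted p = 0.693), opposite in sign to that of the core genes. Nfe2l2, the oxidative stress factor, measured 6.90 and 6.58 in 12W-Ctrl and 5.71 and 5.99 in 12W-TTg, a non-overlapping difference of −0.89 ± 0.26 (1.85-fold lower, adjusted p = 0.661). Nfyc, a subunit of the CCAAT-binding factor, was higher in 12W-TTg by 0.54 ± 0.29.

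In ubiquitin shuttling (7 of 13 measured), Ubqln4, which carries ubiquitinated proteins to the proteasome, measured 8.79 and 8.27 in 8W-Ctrl, 9.44 and 9.77 in 12W-Ctrl, and 9.53 and 9.59 in 12W-TTg. The 2-month pair of Ubqln4 lay below the rest, with a difference of 1.08 ± 0.27 in Ctrl (2.11-fold higher, adjusted p = 0.477). Zfand2a, a stress-induced proteasome adaptor, was higher over time by 0.79 ± 0.28, and Rad23b differed by −0.35 ± 0.27 in 12W-TTg against 8W-Ctrl. Over time in Ctrl these 2 higher genes stood beside 5 of the 7 with a lower mean (48.8% of all features). The median of the list was −0.07. Of the 6 measured muscle ubiquitin ligases, 5 had a higher mean at 3 months than at 2 months in Ctrl. Over all features 48.8% had a lower mean at 3 months. Higher without overlap were 2 of the 6 (18.3% of all features). Fbxo30, a ligase induced in wasting muscle, had a difference of 1.13 ± 0.25 (2.19-fold higher, adjusted p = 0.406), from 8.94 and 8.76 to 9.77 and 10.19, with 9.46 and 9.50 in 12W-TTg. Trim63 (MuRF1) was higher by 0.65 ± 0.51 over time in Ctrl, with overlapping groups, and Trim55 (MuRF2) by 0.63 ± 0.22 in 12W-TTg against 8W-Ctrl.

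For MHC class I presentation, 9 of 10 measured genes had a lower mean in 12W-TTg than in 12W-Ctrl (48.3% of all features). The median was −0.32. Without overlap, 4 of the 10 were lower and 1 higher, against 19.3% and 19.1% of all features. The class I heavy chains H2-D1 and H2-K1 differed by −0.94 ± 0.72 and −0.85 ± 0.63, with wide spread and overlap: H2-K1 measured 13.63 and 12.55 in 12W-Ctrl and 12.66 and 11.83 in 12W-TTg. Tap2, which lies beside Psmb8, was higher at 3 months by 0.86 ± 0.28 in Ctrl and differed by −0.06 ± 0.28 between genotypes, where Psmb8 differed by −1.37. For interferon gamma signalling, 9 of 10 measured genes had a lower mean in 12W-TTg than in 12W-Ctrl (48.3% of all features). The median was −0.36, and the receptor Ifngr1 was among the lower genes (−0.65 ± 0.27). Without overlap, 5 of the 10 were lower and 0 higher, against 19.3% and 19.1% of all features. Ifng itself, the 1 gene higher in 12W-TTg (by 0.35 ± 0.31), was near background (3.31 to 4.62). Cxcl9, a chemokine that interferon gamma induces, measured 6.72 and 5.79 in 8W-Ctrl, 4.43 and 4.79 in 12W-Ctrl, and 4.07 and 4.52 in 12W-TTg. It was highest at 2 months, with a difference of −1.96 ± 0.36 for 12W-TTg against 8W-Ctrl (3.89-fold lower, adjusted p = 0.340).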

How the data were processed

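Each of 6 hearts gave the RNA for 1 Clariom S mouse array. The authors deposited log2 values per array feature. The submitters' processing notes name Transcriptome Analysis Console 4.0, and the summary, background and normalization methods and the genome build are not given in the sources used here. All 22206 deposited features were used as they stood, and 2634 have no gene symbol. Groups and replicate numbers came from the labels, whose design text calls the hearts independent biological replicates.

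All 6 arrays entered 1 linear model of the 3 groups in limma 3.58.1 in R 4.3.3 (3 residual and 4.13 prior degrees of freedom), with Benjamini-Hochberg adjustment over every feature in each of the 3 comparisons. Sequences and gene order came from RefSeq tables of GRCm38.p6, searched with Python. The fit was tested on simulated data with known changes. Lists of cofactors and markers were written from general knowledge, and the members and lists were chosen with earlier results of these data known. Genes named always were the immunoproteasome genes, Psmb6, Psmb7, Pomp, Nfe2l1, other activators, chaperones and tissue-restricted genes. Added to these were, in each comparison, the 3 highest and 3 lowest constitutive 26S genes and, in each list of cofactors, the 3 largest differences. Psmb1, Psmb3, Psmb4, Psmc6, and Psma5 and Psmd6 over time were named after their values were seen. Alternatives were other priors and normalizations, a filter on dim features, features with 1 symbol, 2 groups alone, a replicate block, another threshold, other gene sets and leaving out each array.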

Additional observations from a re-analysis of the deposited data

How the results depend on the processing

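The count of proteasome genes past the threshold stayed at 0 in each comparison under every alternative of prior, normalization, feature filter, 2 groups alone, replicate block and left-out array. An unadjusted p under 0.05 in limma and at least 2-fold were also used in place of that threshold. The count was then 0 for 12W-Ctrl against 8W-Ctrl, 1 for 12W-TTg against 12W-Ctrl and 4 for 12W-TTg against 8W-Ctrl. Many features outside the proteasome also passed this looser rule in each comparison. Their share is not given, so these counts alone do not show an excess of proteasome genes. The labels do not say that replicates with the same number are paired. Their deviations correlated across features at 0.12 to 0.14 between groups, and 2 numbers are too few to settle whether they are. With the replicate block, 0 proteasome genes passed in all 3 comparisons, and their smallest adjusted p was 0.194 for 12W-TTg against 12W-Ctrl, 0.390 for 12W-Ctrl against 8W-Ctrl and 0.134 for 12W-TTg against 8W-Ctrl. Over all features the block gave 11, 1 and 5 calls in that order, against 1, 1 and 0 without it. The immunoproteasome minus 26S difference for 12W-TTg against 12W-Ctrl was −0.94 with the cutting subunits alone (against Psmb6 and Psmb7), −0.80 with medians in place of means and −0.72 to −0.17 with 1 array left out. For 12W-TTg against 8W-Ctrl it was −0.44, −0.77 and −0.39 to 0.16 in the same order, and for 12W-Ctrl against 8W-Ctrl 0.50, 0.04 and 0.11 to 0.55. Core genes with every 2-month value above every 3-month value numbered 10 to 13 and 19S genes 6 to 9, alternatives chosen after seeing the data. With an array left out these counts compare fewer values, so the order is easier to meet. With 1 array left out, the median of the 19S genes for 12W-TTg against 8W-Ctrl ran from −0.47 to −0.20, and that of the immunoproteasome genes from −0.82 to −0.22 there and from −0.42 to 0.14 for 12W-Ctrl against 8W-Ctrl. Single genes whose sign turned with 1 array left out had small differences. In 12W-Ctrl against 8W-Ctrl these were Psmb6 (−0.60 to 0.34), Psmb8 (−0.07 to 0.92), Psmb9 (−0.09 to 0.90), Psmd5 (−0.73 to 0.20), Psme1 (−0.78 to 0.14) and Psmg1 (−0.43 to 0.29). In 12W-TTg against 12W-Ctrl they were Psmb6 (−0.19 to 0.02), Psmb7 (−0.46 to 0.39, and 0.01 with arrays centred on the median), Psmc5 (−0.18 to 0.40) and Psme2 (up to 0.04). In 12W-TTg against 8W-Ctrl they were Psmb6 (−0.69 to 0.26), Psmb9 (−0.82 to 0.16), Psmd11 (−0.01 to 0.35), Psme1 (−0.54 to 0.38), Psme4 (−0.18 to 0.59) and Psmg2 (−0.21 to 0.08). The cause was not tested. With 2 arrays per group their number limits every value, and low signals such as those of Psmg4 and Psmb9 limit how far a difference can be measured.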
